A study of Mus musculus with 6 samples.

Results

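The genes described here encode the proteins of the cytosolic ribosome. They were taken from the gene table by symbol: names starting with Rpl and a digit or p, names starting with Rps and a digit, and Rpsa. Of 105 matching genes, 10 S6 kinase genes, whose symbols also start with Rps, and 7 genes with "-ps" in the symbol were left out. This left 88 of the 24421 genes of the table, with 53 of the large subunit and 34 of the small subunit. The remaining gene, Rps19bp1, encodes a protein that binds Rps19 and is not itself a subunit. A set of 10 of the 88 are paralogs or retrocopies of another member.

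Foxp2-Cre mice were the source of 6 libraries of nuclei from the mPFC, the medial prefrontal cortex: 3 of the CFA group and 3 of the saline group. CFA is complete Freund's adjuvant, an emulsion of killed mycobacteria used to produce lasting inflammatory pain, and the titles name saline as the control. All animals of both groups had received the same virus, an adeno-associated virus (AAV) for KASH-GFP, a green protein held in the nuclear envelope, on both sides of the mPFC 4 weeks before collection. Each library was made from 10000 sorted nuclei. Cre is made where the Foxp2 gene is active, so the nuclei depend on that promoter and on the virus reaching the cell. The age and sex of the mice, the site and day of CFA or saline, and whether a library came from 1 animal or from several are not stated in the labels. Where the 3 libraries of a group are not separate animals, the p-values below measure only the spread between these samples. The study's title names a prefrontal to thalamic circuit and lasting pain. The comparison of CFA with saline asks which transcripts of these nuclei differ in the pain condition.

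The cytosolic ribosome joins a small subunit, which reads the messenger RNA, to a large subunit, which forms the peptide bond. Each subunit is built in the nucleolus from ribosomal RNA and 1 copy of nearly every ribosomal protein, the acidic stalk proteins being an exception. Ribosomal protein messengers are short, abundant and start with a run of pyrimidines, by which the kinase mTORC1 and the protein LARP1 control their translation. Many of the genes carry small nucleolar RNAs (snoRNAs) in their introns. In neurons these messengers are found in the cell body and also in dendrites and axons. Here nuclei were sorted, so the counts come from nuclear RNA and from cytoplasmic RNA that stayed with the nuclei.

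The start regions of 6 members are shown because the results below turn on these genes: Rpl4 and Rpl38 for their high level, Rps7 and Rps12 for their place within the family, and Rps27 and Rpl22l1 as members of paralog pairs. They were read from the RefSeq promoter table (GRCm38.p6). Each runs from 80 bases before the start site to 20 bases after it, on the gene's own strand. They lie at chr9:64173307-64173406 (Rpl4, plus strand), chr11:114668500-114668599 (Rpl38, plus strand), chr12:28635934-28636033 (Rps7, minus strand), chr3:90213629-90213728 (Rps27, minus strand), chr3:28805428-28805527 (Rpl22l1, plus strand) and chr10:23787190-23787289 (Rps12, minus strand). Capitals mark exact matches to 4 motifs: CCGGAAG, a core of ETS-family sites, AAGATGGCG, a core of YY1 sites, and TATAAA, the TATA core, each searched on both strands, and the pyrimidine run CTTTCC, searched on the gene's strand alone.
Rpl4: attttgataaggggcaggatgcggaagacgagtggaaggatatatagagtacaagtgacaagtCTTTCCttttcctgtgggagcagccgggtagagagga
Rpl38: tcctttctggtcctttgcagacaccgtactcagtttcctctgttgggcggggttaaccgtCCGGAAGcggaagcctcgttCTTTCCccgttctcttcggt
Rps7: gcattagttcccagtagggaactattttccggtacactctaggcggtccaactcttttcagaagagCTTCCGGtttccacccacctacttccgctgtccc
Rps27: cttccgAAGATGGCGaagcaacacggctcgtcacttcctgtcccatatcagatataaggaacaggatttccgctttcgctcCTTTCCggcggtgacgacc
Rpl22l1: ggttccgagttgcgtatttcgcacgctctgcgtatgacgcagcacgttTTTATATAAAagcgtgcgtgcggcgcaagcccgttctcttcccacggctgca
Rps12: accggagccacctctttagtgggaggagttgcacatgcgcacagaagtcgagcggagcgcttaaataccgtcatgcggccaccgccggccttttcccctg

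The pyrimidine run began at position -17 in Rpl4, counted from the start site, at 1 in Rpl38 and at 2 in Rps27. The ETS core began at -20 in Rpl38 and, on the opposite strand, at -14 in Rps7, and the YY1 core began at -74 in Rps27. In Rpl22l1 a palindromic stretch gave overlapping TATA matches on both strands, at -32 and -28, and the Rps12 stretch held no match to the 4 motifs. Windows of 300 bases, 250 before and 50 after the start, were found by symbol for 61 of the 82 members tested below, 72 windows in all because some genes have several starts. The ETS core was in 34.7% of these windows against 8.86% of all 32851 windows of the table. The pyrimidine run was in 37.5% against 14.1%, the YY1 core in 8.33% against 1.40%, and the TATA core in 9.72% against 13.6%. These are matches of letters, and whether any factor binds there was not measured.

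The 88 genes lay on 19 chromosomes, 4 of them on X. Within the spans of 30 members were 58 annotated snoRNAs, with 5 in Rpl4 and 4 in Rpl13a. The tested members were short, with a median exon length of 706.5 bases against 2982 for all tested genes. Sequence repeated elsewhere was common: in 29 of the 88, more than 50% of the 50-base stretches of the gene's protein-coding transcripts also occur in another annotated transcript.

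A filter on low counts left 82 of the 88 members. The 6 that did not pass were Rpl10l, Rpl26, Rpl39l, Rps27rt, Rpl3l and Rpl37rt. Rpl10l and Rpl39l, paralogs known mainly from the testis, had 0 counts in every library. Rpl26, which encodes a core protein of the large subunit needed in all cells, was also listed at 0 in every library, as was the retrocopy Rps27rt. Rpl37rt, a retrocopy of Rpl37, had 4, 9 and 3 counts in CFA replicates 1 to 3 and 12, 9 and 4 in saline replicates 1 to 3. A count of 0 allowed up to 3 counts, or 0.253 to 0.310 CPM (read counts scaled to a common library size, with TMM factors), for counting error only.

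Rpl3l, the paralog of Rpl3 made mainly in heart and skeletal muscle, had 8, 9 and 4 counts in CFA replicates 1 to 3 and 0 in each saline replicate. These few counts lie near the floor, and the share of all genes with such a pattern was not computed. The CFA mean was 0.615 CPM, at least 2.17-fold higher than the limit of 3 counts per library in saline. Rpl3l was tested only when the filter was left out, where edgeR's quasi-likelihood test gave an unadjusted p of 0.0145 and an adjusted p of 0.999861. In that fit 745 of 18084 genes had an unadjusted p under 0.05. Just above the filter were Rpl30, with 8, 14 and 9 counts in CFA and 13, 9 and 12 in saline, then Rpl34, with a mean of 29.0 counts per library, and Rps27, with 31.2.

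Among the members with few or no counts, 5 share most of their exon bases with another gene model. Rpl10l, Rpl39l, Rpl3l and Rpl37rt, which did not pass the filter either, have no such overlap. Exon bases shared with another gene on the same strand made up 95.8% of Rpl26 (Gm15772), 76.0% of Rpl30 (Gm12191), 59.9% of Rpl34 (Rpl34-ps1) and 60% of Rps27, whose partner is Rps27rt. The table places Rps27rt at chr3:90212667-90213647, within the span of Rps27 (chr3:90212667-90213648), so that 100% of its exon bases are shared. Rpl13a shared 1 base with Mir5121, and 6 other members (Rpl31, Rpl32, Rpl35, Rpl5, Rps25 and Rps27a) overlapped a gene on the opposite strand. Of the same-strand partners, Gm15772, Rpl34-ps1 and Rps27rt were at 0 in all libraries, and Gm12191 had 1 count each in CFA replicate 3 and saline replicate 3. How reads in shared bases were counted is not given in the sources used here, and its part in these low values was not tested. The values of Rpl26, Rpl30, Rpl34, Rps27 and Rps27rt are uncertain to that extent. The library kits do not mark strand, so the values of members overlapped on the opposite strand are uncertain in the same way. Such overlap was largest in Rpl5 (47.8% of exon bases), Rpl31 (33.1%) and Rps25 (29.4%).

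**Figure D1:**
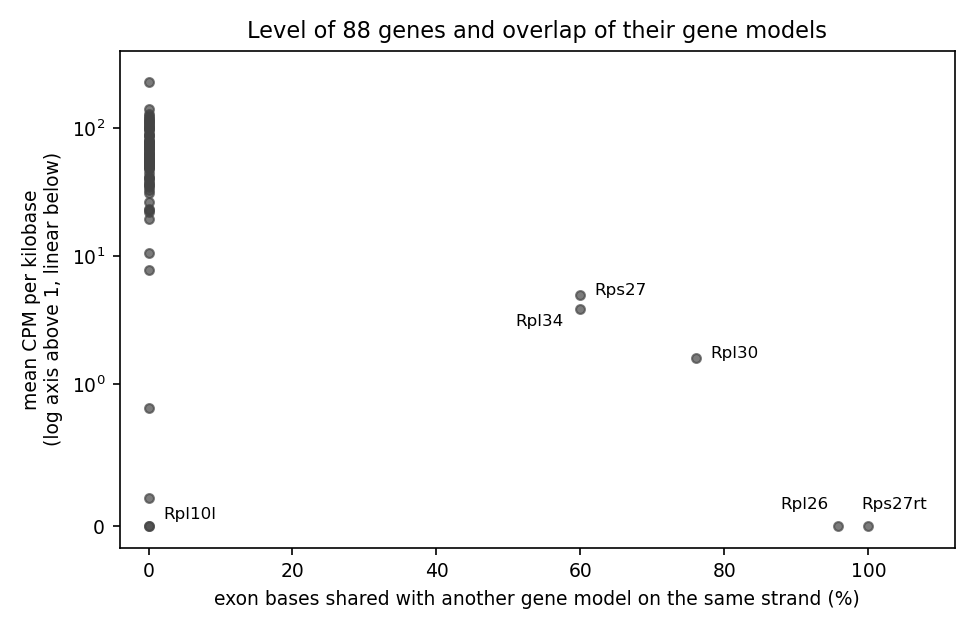
Mean level over 6 libraries (y axis, CPM per kilobase of exon, logarithmic above 1 and linear below) of each of the 88 genes against the share of its exon bases that lie in another gene on the same strand (x axis, %). Genes overlapped only on the opposite strand are drawn at 0% on the x axis. The 5 genes with 59.9% or more shared sit at 4.98 or less, and most of the rest sit at 19.5 or more; of the points at 0 without overlap, only Rpl10l is labelled and Rpl39l lies on it.

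Levels of different genes are compared as CPM per kilobase of exon. The median tested member stood at 58.8 CPM per kilobase, against 10.1 over all tested genes. The highest was Rpl41, a peptide of the subunit interface and the shortest protein of the ribosome, at 230 CPM per kilobase. It was followed by Rpl4, a protein that lines the exit tunnel, at 141. Next came Rps14, of the platform of the small subunit, at 129, then Rpl38 at 124, a large subunit protein known for its part in the patterning of the mouse skeleton. Rps15, of the head of the small subunit, followed at 120.

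The lowest tested were the 3 overlapped genes: Rpl30 at 1.59, Rpl34 at 3.82 and Rps27 at 4.98 CPM per kilobase. Rps15a at 7.74 and Rpl22 at 10.6 came next, and Rps15a has a gene model of 5134 exon bases, the longest of the tested members. The order changed little between libraries, with Spearman correlations of 0.941 to 0.968 over the 15 library pairs, which share gene lengths and repeats. Members with more than 50% repeated stretches were not lower: leaving out the 3 overlapped genes, these 27 had a median of 65.1 CPM per kilobase against 54.9 for the rest.

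As a family the members moved between libraries of the same group. They summed to 3455 CPM in CFA replicate 1, 4633 in CFA replicate 2 and 4042 in CFA replicate 3. In saline the sums were 5360, 3590 and 3391 CPM in replicates 1 to 3. The highest and the lowest of the 6 libraries were thus both saline libraries, and the groups overlapped. The means were 4043 ± 589 CPM in CFA and 4114 ± 1084 CPM in saline (SD, n = 3 each). As a share of each library's counts, the members took 0.350%, 0.467% and 0.394% in CFA and 0.540%, 0.348% and 0.346% in saline.

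**Figure D2:**
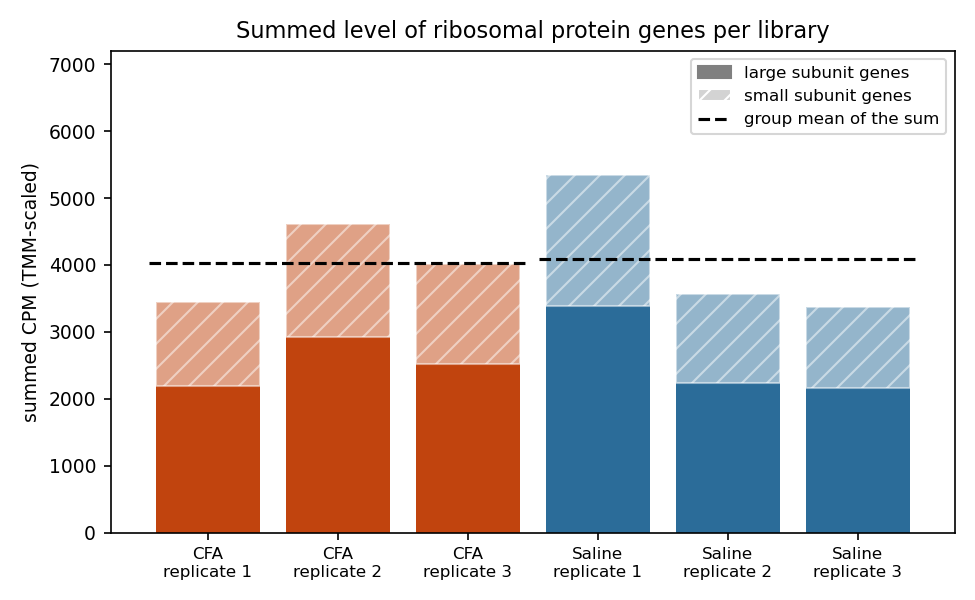
Summed CPM (y axis) of large subunit genes (solid) and small subunit genes (hatched) in each library, CFA in orange and saline in blue, with dashed lines at the group means of the 2-part sum. Saline replicate 1 is the tallest bar and CFA replicate 2 the next, and both subunits are taller there in proportion.

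Both subunits followed the same order of libraries within each group. Large subunit genes summed to 2197, 2919 and 2520 CPM in CFA replicates 1 to 3 and to 3386, 2242 and 2158 in saline. Small subunit genes summed to 1246, 1692 and 1500 CPM in CFA and to 1953, 1325 and 1222 in saline. The ratio of large to small stayed between 1.68 and 1.77 in all 6 libraries, with means of 1.72 ± 0.04 in CFA and 1.73 ± 0.04 in saline (SD, n = 3).

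Nearly all members took part. Each gene's deviation is its log2 CPM minus its mean over the library's own group. The 3 deviations of a gene in a group sum to 0, so the counts below are not independent between libraries of a group. In saline replicate 1, 81 of 82 members were above their group mean, with a median deviation of 0.44, and only Rpl7l1 was below. In CFA replicate 2, 79 of 82 were above, with a median of 0.23, and Rpl15, Rps2 and Rpl18 were below. In CFA replicate 1, saline replicate 2 and saline replicate 3 only 4, 4 and 8 members were above, with medians of -0.24, -0.18 and -0.25. Saline replicate 1 held the highest value of the 6 libraries for 68 members and CFA replicate 2 for 12.

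**Figure D3:**
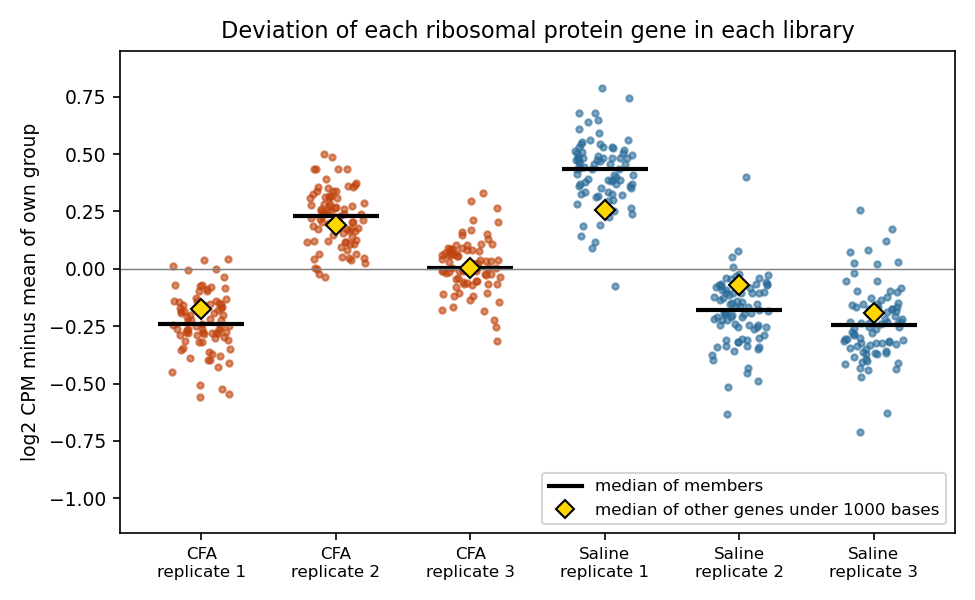
Deviation of each of the 82 tested genes (points; y axis, log2 CPM minus the mean of the library's own group) in each library (x axis). Black bars are the medians of the members, from -0.25 in saline replicate 3 to 0.44 in saline replicate 1, and yellow diamonds are the medians of 854 other genes with exon lengths under 1000 bases, which go the same way.

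Other short genes and other families moved with them. The 854 other tested genes under 1000 exon bases had median deviations of -0.17, 0.19 and 0.002 in CFA replicates 1 to 3 and 0.26, -0.07 and -0.19 in saline. Of these genes, 79.0% were above their group mean in saline replicate 1 and 83.0% in CFA replicate 2. The shares were 26.8% in CFA replicate 1, 37.7% in saline replicate 2 and 32.6% in saline replicate 3. Nuclear genes of oxidative phosphorylation had -0.31, 0.21 and 0.12 in CFA and 0.43, -0.05 and -0.34 in saline, and mitochondrial ribosomal protein genes had -0.16, 0.12 and 0.06, then 0.29, -0.02 and -0.29. Over all tested genes the median stayed within 0.02 of 0 in each library. When a smooth trend on exon length was removed from each library, the members' medians were -0.10, 0.05 and 0.04 in CFA and 0.22, -0.10 and -0.13 in saline. Members above their group mean then numbered 77 of 82 in saline replicate 1 and 56 in CFA replicate 2. In CFA replicate 1 and saline replicates 2 and 3 they numbered 13, 16 and 16.

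Signs of the makeup of each sort are given beside this. Foxp2 itself averaged 29.2 ± 5.50 CPM over the CFA libraries and 33.8 ± 8.61 CPM over the saline ones, and Slc17a7, the glutamate transporter of cortical excitatory neurons, 2279 ± 357 and 2144 ± 177 (SD, n = 3). Both are among 9 markers of corticothalamic neurons, of which 2 had log2 fold changes above 0 and 7 below, with a median of -0.10. The mean log2 CPM of these 9 was 7.02 ± 0.12 in CFA and 7.15 ± 0.11 in saline (SD, n = 3). The mean log2 CPM of 7 markers of striatal projection neurons was 5.09, 3.78 and 3.47 in CFA replicates 1 to 3 and 6.17, 5.14 and 4.59 in saline, highest in saline replicate 1. All 7 had log2 fold changes below 0, with a median of -1.01, and none was called. By edgeR, 5 of the 7 had an unadjusted p under 0.05, all lower in CFA, against 1.87% of all tested genes. In 2 of the 7 every CFA library lay below saline, against 3.97% of all tested genes. Of the 7 markers, the enkephalin gene Penk ran from 6.52 to 308 CPM, with 308 in saline replicate 1. Astrocyte markers lay between 3.73 and 4.33 in CFA and between 3.43 and 3.84 in saline, microglial markers between 2.07 and 3.08 and between 1.30 and 2.58. Of 10 astrocyte markers, 6 had log2 fold changes above 0 and 4 below. By edgeR, 3 of the 10 were higher in CFA at an unadjusted p under 0.05, against 1.35% of all tested genes. The microglial markers had 8 above 0 and 2 below, with 1 of 10 higher at that cut. Oligodendrocyte markers stood at 4.59, 4.31 and 3.92 in CFA replicates 1 to 3 and at 4.78, 4.07 and 4.17 in saline. Inhibitory neuron markers averaged 3.38 ± 0.19 in CFA and 3.25 ± 0.29 in saline (SD, n = 3). Oligodendrocyte precursor markers averaged 2.35 ± 0.35 and 1.36 ± 0.95. Of the 5 tested, 4 had log2 fold changes above 0 and 1 below, and 2 were higher in CFA at an unadjusted p under 0.05 by edgeR.

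The mean log2 CPM of 25 cytoplasm-rich neuronal transcripts ran from 9.43 to 9.60 in CFA and from 9.11 to 9.64 in saline, lowest in saline replicate 3. Nuclear long non-coding RNAs were highest there, at 8.10 against 6.93 to 7.32 in the other libraries. The part of cell makeup, of cytoplasmic RNA and of transcript length in the family's movement was not tested. In such bulk samples, fewer cells of a type and less RNA per cell cannot be told apart.

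Individual members varied together between libraries. The median within-group SD of log2 CPM was 0.34 for members and 0.31 for all tested genes, a set not matched to the members for level. Measured relative to the members' mean in the same library, the median SD was 0.13, and it was lower than the plain SD for 79 of 82 members. The median coefficient of variation was 17.2% in CFA and 28.5% in saline, against 4.43% from Poisson counting alone at the members' counts. Over the 6 libraries the median member had a Pearson correlation of 0.92 with the mean of the other members, which shares depth and scaling.

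Rpl7l1, a nucleolar relative of Rpl7 that acts in ribosome assembly, had the smallest SD (0.10) and the lowest such correlation, 0.04. It stood at 58.1, 69.0 and 60.0 CPM in CFA replicates 1 to 3 and at 55.7, 60.7 and 59.7 CPM in saline. Saline replicate 1, the highest library for most members, was its lowest. Rpl10a, a large subunit protein near the exit of the transfer RNA, had an SD of 0.11 and a range of 37.8 to 47.5 CPM, and Rpl5, which brings 5S RNA to the large subunit, an SD of 0.19. The largest SDs were those of Rps20 (0.60), Rps19bp1 (0.52) and Rpl7a (0.51). Rps20, of the head of the small subunit, ran from 11.5 to 19.8 CPM in CFA and from 10.8 to 31.0 CPM in saline.

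Outside the family, among the 6612 genes whose mean log2 CPM reached 5, those with the highest Pearson correlation with the members' mean log2 CPM over the 6 libraries included Nucks1 (0.995), Ndufa7 (0.986), Pdcd5 (0.985) and Nenf (0.984). Nucks1 encodes a chromatin protein and Ndufa7 a subunit of respiratory complex I. Nucks1 has 6096 exon bases and Pdcd5 has 642.

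CFA and saline did not differ detectably in any of the 82 tested ribosomal protein genes. None of the 82 tested members was called by edgeR's quasi-likelihood test at an adjusted p under 0.05, where 0% of all 13560 tested genes were called, and none had an unadjusted p under 0.05, where the share over all genes was 1.35% higher in CFA and 1.87% lower. DESeq2 and limma-voom also called 0 members. Over all genes 437 had an unadjusted p under 0.05, and DESeq2 called 5 genes and limma-voom 0. None of the 82 tested members had CPM values apart between the groups, against 3.55% of all genes with every CFA library above saline and 3.97% with every CFA library below. The smallest unadjusted p of a member was 0.109, and the smallest adjusted p was 0.999973. The members' standard errors ran from 0.18 to 0.80 on the log2 scale with a median of 0.24, which sets the size of change that could be seen.

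The fitted log2 fold changes, CFA minus saline, were small. Below 0 were 52 of 82 members, against 50.2% of all tested genes, and the members' median was -0.04 against -0.001. Large subunit genes had a median of -0.03 with 29 of 48 below 0, and small subunit genes -0.07 with 22 of 33 below 0. The side on which the family falls rested on single libraries. Without saline replicate 1 the members' median was 0.20 and 76 of 82 were above 0, and without CFA replicate 1 it was 0.06 with 60 above. Without CFA replicate 2 it was -0.16, without saline replicate 2 -0.15 and without saline replicate 3 -0.14. Members whose span holds a snoRNA had a median of -0.02 (30 genes) and the others -0.06 (52 genes).

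**Figure D4:**
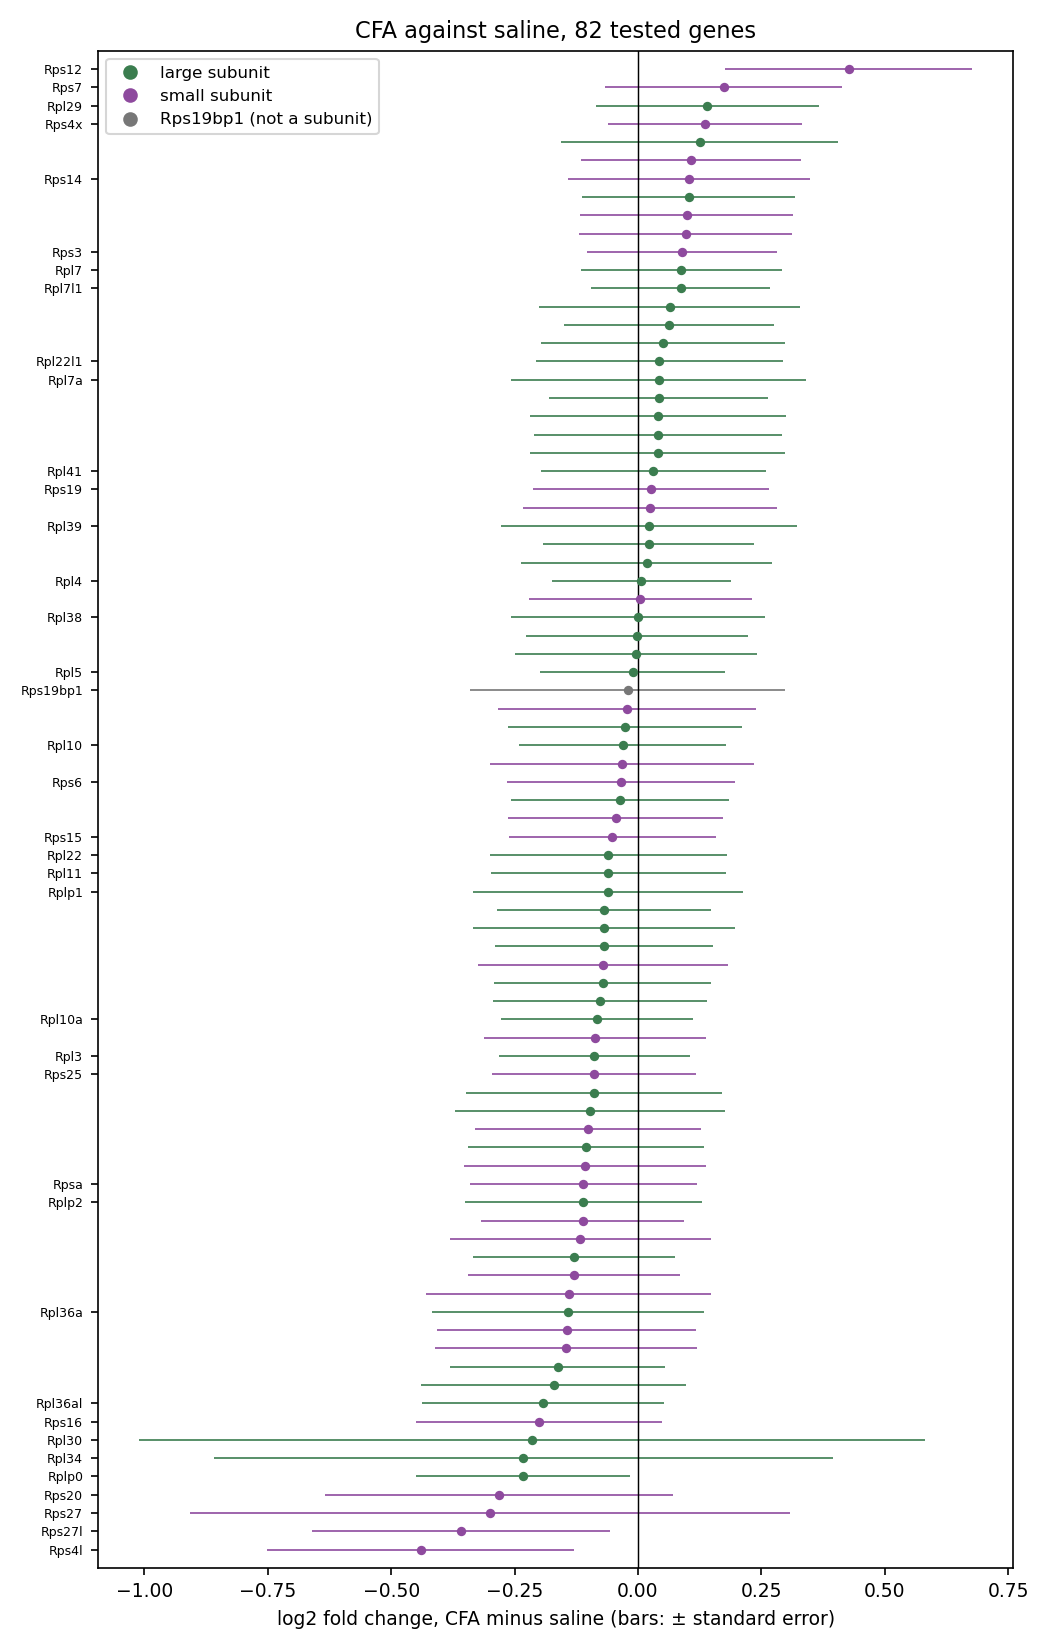
Log2 fold change of CFA against saline (x axis; points with bars of ± 1 standard error) for the 82 tested genes, ordered by value and labelled where the gene was chosen for naming, with large subunit genes in green, small subunit genes in purple and Rps19bp1 in grey. Values run from -0.44 (Rps4l) to 0.43 (Rps12), and the widest bars belong to Rpl30, Rpl34 and Rps27.

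On the higher side, Rps12 came first. Rps12, a small subunit protein of the beak of the head, stood at 22.1, 35.0 and 30.4 CPM in CFA and at 26.7, 18.7 and 19.7 CPM in saline. CFA replicates 2 and 3 were above all saline libraries and CFA replicate 1 lay among them. The log2 fold change was 0.43 ± 0.25 (SE, adjusted p = 0.999973 by edgeR). Leaving out CFA replicate 1 gave an unadjusted p of 0.0489, and leaving out saline replicate 1 one of 0.0429, with adjusted p-values of 0.999871 and 0.999873. The fold change was 0.59 and 0.60 without these libraries, and it was 0.27 without CFA replicate 2. Rps7, a small subunit protein that can bind MDM2, followed with 43.3, 62.5 and 51.0 CPM in CFA and 62.5, 41.5 and 35.0 CPM in saline (0.17 ± 0.24). Its value was 0.45 without saline replicate 1, 0.03 without CFA replicate 2 and 0.01 without saline replicate 3. Rps4x, the X-linked form of small subunit protein S4, had 68.2 CPM in its highest CFA library and 61.6 CPM in its highest saline library (0.14 ± 0.20). Rpl29, a large subunit protein, had 0.14 ± 0.23, and Rpl7l1 had 0.09 ± 0.18.

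On the lower side, Rps4l came first. Rps4l, a 1-exon copy related to Rps4x, stood at 14.5, 19.5 and 12.9 CPM in CFA and at 31.3, 17.8 and 14.4 CPM in saline. Only saline replicate 1 lay above all CFA libraries, and the log2 fold change was -0.44 ± 0.31 (SE, adjusted p = 0.999973 by edgeR). Without saline replicate 1 the log2 fold change was -0.05, and over the other left-out libraries it ran from -0.65 to -0.32. Its unadjusted p was 0.0459 without saline replicate 3 (adjusted p 0.732). Rplp0, the stalk base protein often used as a reference gene in PCR, stood at 57.6, 76.6 and 71.2 CPM in CFA and at 105, 76.1 and 60.6 CPM in saline (-0.23 ± 0.22, and within 0.01 of 0 without saline replicate 1). Its partners in the stalk, which binds elongation factors, had -0.06 ± 0.27 for Rplp1 and -0.11 ± 0.24 for Rplp2. Without saline replicate 1 these were 0.36 and 0.18. Rps20 had -0.28 ± 0.35, and 0.21 without saline replicate 1, and Rps16, a small subunit protein near the decoding centre, -0.20 ± 0.25.

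The proteins with known duties of their own had values near 0 with all 6 libraries. Rps6, the substrate of the S6 kinases, stood at 63.9, 84.5 and 85.7 CPM in CFA and at 110, 70.6 and 59.0 CPM in saline, with a log2 fold change of -0.03 ± 0.23. Rpl5 and Rpl11, which with 5S RNA bind MDM2 when assembly fails, had -0.01 ± 0.19 and -0.06 ± 0.24. Rps19, the gene most often mutated in Diamond-Blackfan anaemia, had 0.03 ± 0.24. Rpsa, also known as a laminin receptor, had -0.11 ± 0.23, and Rps3, which lies at the messenger's entry, 0.09 ± 0.19. These values rested on saline replicate 1: without it they were 0.26 for Rps6, 0.14 for Rpl5, 0.19 for Rpl11, 0.30 for Rps19, 0.17 for Rpsa and 0.29 for Rps3.

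Members used in studies of ribosomes that differ in makeup were also near 0 with all 6 libraries: Rpl10a at -0.08 ± 0.19, Rps25 at -0.09 ± 0.21 and Rpl38 at 0.00 ± 0.26, where 0 lies within 1 SE for each. Among the abundant large subunit genes, Rpl4 stood at 182, 217 and 204 CPM in CFA and at 243, 184 and 173 CPM in saline, a log2 fold change of 0.01 ± 0.18. Rpl3, the protein closest to the site of peptide bond formation, had -0.09 ± 0.19, Rpl41 0.03 ± 0.23, Rps14 0.10 ± 0.25 and Rps15 -0.05 ± 0.21. In each of these genes saline replicate 1 was the highest library. Without it Rpl38 and Rpl41 were at 0.31, Rps14 at 0.42, Rpl4 at 0.17 and Rpl3 at 0.13.

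Some paralog pairs could be told apart from each other in coding sequence and differed in level. The coding sequences of Rps27 (chr3:90212728-90213615, minus strand) and Rps27l (chr9:66946175-66949354, plus strand), read from the GENCODE M21 transcripts, are shown because the pair carried the contrast between an overlapped member and its copy. Both are 252 bases long, and capitals mark the 60 bases at which they differ.
Rps27: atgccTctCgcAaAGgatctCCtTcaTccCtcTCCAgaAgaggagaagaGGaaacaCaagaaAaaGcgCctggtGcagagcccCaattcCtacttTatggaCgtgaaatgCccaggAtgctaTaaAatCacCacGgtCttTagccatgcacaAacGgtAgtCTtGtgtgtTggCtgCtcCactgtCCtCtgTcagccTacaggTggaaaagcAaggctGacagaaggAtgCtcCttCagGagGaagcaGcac
Rps27l: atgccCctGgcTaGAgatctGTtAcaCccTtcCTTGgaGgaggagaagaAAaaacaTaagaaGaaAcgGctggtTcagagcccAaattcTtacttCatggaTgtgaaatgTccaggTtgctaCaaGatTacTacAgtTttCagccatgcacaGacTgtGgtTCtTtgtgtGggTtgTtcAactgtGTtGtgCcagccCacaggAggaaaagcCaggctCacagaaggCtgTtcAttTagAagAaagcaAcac

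The pair was identical at 76.2% of bases, with no identical run over 11 bases. Rps27l, a p53 target in other cells, stood at 31.1 CPM per kilobase and Rps27 at 4.98. Rps27 had 2.16, 2.56 and 2.98 CPM in CFA and 4.47, 1.85 and 3.14 CPM in saline (-0.30 ± 0.61 on the log2 scale). Rps27l had 8.32, 14.9 and 14.7 CPM in CFA and 19.3, 14.6 and 14.7 CPM in saline (-0.36 ± 0.30, adjusted p = 0.999973 by edgeR, and -0.14 without CFA replicate 1). CFA replicate 1 was the lowest library for Rps27l and saline replicate 1 the highest for both. The low level of Rps27 is that of a gene whose exons are shared with Rps27rt in the table.

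In the other pairs no partner was called either. Rpl22l1, a relative of the RNA-binding protein Rpl22, stood at 105 CPM per kilobase and Rpl22, whose model is longer, at 10.6, with log2 fold changes of 0.04 ± 0.25 and -0.06 ± 0.24. Rpl36al stood at 73.3 CPM per kilobase and its X-linked relative Rpl36a at 33.0, with -0.19 ± 0.25 and -0.14 ± 0.28. Rpl7 stood at 62.2 and Rpl7l1 at 23.2, Rps4x at 65.1 and Rps4l at 19.5 CPM per kilobase. Rpl39, Rpl10 and Rpl3 stood at 41.7, 87.2 and 113 CPM per kilobase, and their paralogs Rpl39l, Rpl10l and Rpl3l did not pass the filter. Coding identity was computed for these pairs except Rps4x and Rps4l. It ran from 61.8% (Rpl7 and Rpl7l1) to 87.7% (Rpl36a and Rpl36al), and none of the pairs so compared shared a 50-base stretch of coding sequence. The share of 50-base stretches found in any other annotated transcript differed within pairs. It was 85.48% in Rpl36a and 22.05% in Rpl36al, 72.25% in Rps4x and 14.88% in Rps4l, and 58.93% in Rpl22l1 and 5.16% in Rpl22. How reads mapping to several places were counted is not given, and its part in these levels was not tested. Without saline replicate 1 the log2 fold change was 0.12 for Rpl36al and 0.32 for Rpl22l1.

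Relative to the family's own mean in each library, a few members separated the groups. Rps12 lay at -0.60, -0.40 and -0.39 in CFA replicates 1 to 3 (log2 CPM minus the mean log2 CPM of the members) and at -1.01, -0.90 and -0.79 in saline. Every CFA library was above every saline library, by a mean of 0.43. Rps7 was also higher in each CFA library, by a mean of 0.22, and Rpl29 by 0.16, while Rps16 was lower by 0.16. These were 3 members higher and 1 lower of 82, where 2.11% of all tested genes were higher and 1.64% lower on the same relative scale. The counts are near what those shares give, and the differences on this scale have no test of their own.

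**Figure D5:**
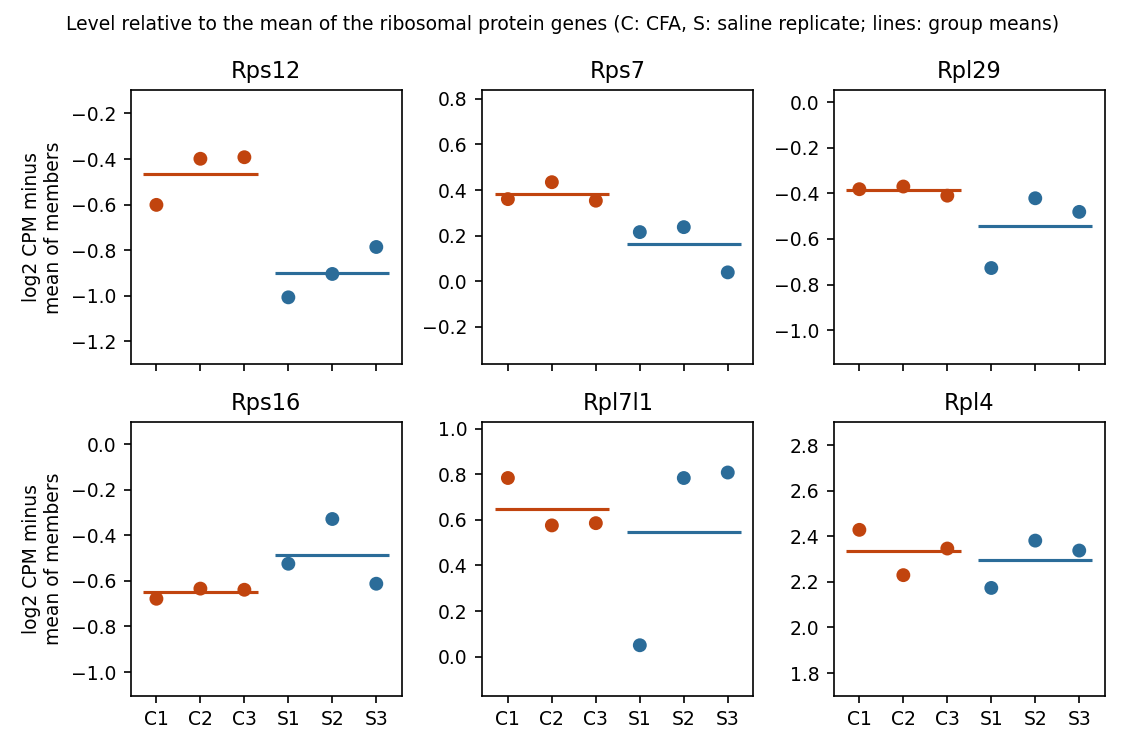
Level of 6 genes relative to the mean of the ribosomal protein genes in the same library (y axis, log2 CPM difference, each panel spanning the same range), for CFA (C, orange) and saline (S, blue) replicates, with lines at group means. Rps12, Rps7 and Rpl29 are higher in every CFA library and Rps16 lower, while Rpl7l1 and Rpl4 overlap; Rpl7l1 is low in saline replicate 1, where most members are high.

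The wider machinery of ribosome production was read from lists in the same fit, and no gene of these lists was called. Of the ribosomal proteins outside the symbol pattern, Gnb2l1 (RACK1) had a log2 fold change of 0.13 ± 0.20 and Fau, which encodes small subunit protein S30, 0.03 ± 0.25. Gnb2l1, a scaffold on the head of the small subunit, averaged 97.8 ± 6.17 CPM over the CFA libraries and 89.0 ± 22.6 CPM over the saline ones (SD, n = 3). Translation initiation and elongation factors were above 0 for 23 and below for 11 of 34, with a median of 0.02. The neuronal elongation factor Eef1a2 had 0.40 ± 0.28 and the initiation factor subunit Eif3a -0.22 ± 0.17.

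Ribosome assembly factors were above 0 for 29 and below for 20 of 49, with a median of 0.02. The smallest p among them was that of Ltv1, which helps to export and finish the small subunit. It stood at 33.9, 38.4 and 26.1 CPM in CFA and at 21.3, 17.9 and 24.6 CPM in saline (log2 fold change 0.62 ± 0.24, adjusted p = 0.999973 by edgeR). All 3 CFA values lay above the saline values. Of the 49 factors, 1 was apart on the higher side and 1 on the lower, against 3.55% and 3.97% of all tested genes. RNA polymerase I and its factors were above 0 for 5 and below for 10 of 15, with a median of -0.08, and mTORC1 and S6 kinase pathway genes for 17 and 22 of 39, with a median of -0.01. Hosts of snoRNAs that start with a pyrimidine run were at or above 0 for 9 of 9, with a median of 0.10, and the smallest p among them was 0.415 (Snhg12, 0.33 ± 0.39).

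Transcription factors named for ribosomal protein promoters had a median of 0.002, 7 above and 6 below 0. Myc, which drives ribosome production in growing cells, stood at 3.66, 4.50 and 5.67 CPM in CFA and at 8.32, 14.2 and 7.60 CPM in saline. The groups did not overlap, and the log2 fold change was -1.12 ± 0.40 (adjusted p = 0.999973 by edgeR). Myc was the 1 gene of the 13 with every CFA library below saline, against 3.97% of all tested genes. YY1, whose core motif was searched above, had -0.58 ± 0.30 for its gene Yy1. Genes of ribosome quality control and nonsense-mediated decay were below 0 for 12 of 17, with a median of -0.14. Ascc3, a helicase that splits stalled ribosomes, had -0.67 ± 0.25 (adjusted p = 0.999973 by edgeR). Genes of p53 surveillance had a median of -0.03, with Cdkn1a, the cell cycle inhibitor p21, at 0.28 ± 0.30.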

How the data were processed

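Nuclear polyadenylated RNA was measured in 6 libraries, 3 CFA and 3 saline, with groups and replicate numbers taken from the titles. Per the labels, cDNA came from the Smart-seq V4 kit with 9 PCR cycles, and 300 ng entered Nextera XT, kits that do not mark strand. Values in the deposited table were raw read counts, 1 per gene and library, beside each gene's exon intervals. Per the submitters' processing notes, reads were handled with Trim Galore, HISAT2 2.2.1 (build mm10), SAMtools 1.13, edgeR 3.32.1 and featureCounts 2.0.1, in no stated order. The sources used here do not give its settings for strand or for reads mapping to several places.

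Total counts ranged from 9673038 to 11850741 per library. No 2 libraries were alike within sampling noise (chi-square of at least 16.4 for each degree of freedom). Groups were compared in R 4.3.3 with edgeR 4.0.16, by its quasi-likelihood test with TMM, filterByExpr, treatment as the only term and Benjamini-Hochberg adjustment over 13560 genes at 0.05. It was tested on simulated data. SE was derived from the F statistic, and a prior count of 2 went into log2 CPM. limma 3.58.1, DESeq2 1.42.0, other scalings and filters, a length correction, a covariate, the replicate block and left-out libraries were the alternatives. Floors cover counting error alone, because reads amplified without molecular identifiers do not stand for independent molecules.

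Overlap, snoRNAs and 50-base repeats came from the table's exons and GENCODE M21. Members and lists were chosen with earlier results of these data known. Named members were the 5 with the smallest p in each direction, the 5 highest and 3 lowest per length, the 3 largest and 3 smallest SDs, and a fixed set with known roles and paralogs. From each other list the 2 smallest p were eligible. Rpl3l, Ltv1, Myc and Ascc3 fell under these rules, and Rps15a, Penk and the members of the deviation lists were named after their values were seen. A few results are not reported here.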

Additional observations from a re-analysis of the deposited data

How the results depend on the processing

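Under all 17 alternatives no ribosomal protein gene was called. Their median log2 fold change stayed between -0.06 and -0.02 under the alternatives that kept all 6 libraries, and ran from -0.16 to 0.20 when 1 library was left out. For large subunit genes that range was -0.16 to 0.22, and for small subunit genes -0.20 to 0.17. The count of all genes called, 0 with the filter and TMM, was 9 with no filter on low counts, 5 with DESeq2 and 6 with the replicate block, and 0 to 5 when 1 library was left out, with 5 without saline replicate 3. The cause was not tested. Same-numbered libraries of the 2 groups correlated at -0.08, 0.02 and -0.07 in their deviations, so the numbers were not taken as pairs. With the replicate block, 0 members were called and their median was -0.02. Group means of summed CPM ran from 3739 to 4313 in CFA and from 3488 to 4450 in saline when 1 library was left out. Of 643 values of named members under the alternatives, 75 changed sign. Moves of at least the gene's SE in the main fit numbered 20, each in another of the 38 named members and all without saline replicate 1. The lowest adjusted p among all 643 values was 0.732, for Rps4l without saline replicate 3. Scaling by the members' own sum and leaving out the overlapped members were chosen after seeing the data. Depth limits Rpl3l, Rpl37rt and Rpl30, with means of 3.5, 6.83 and 10.8 counts per library.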

Other observations

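The 7 genes left out for "-ps" in the symbol had few counts over the 6 libraries: 86 in all for Rps19-ps3, 55 for Rpl14-ps1, 35 for Rps15a-ps6, 24 for Rpl31-ps12 and 22 for Rps15a-ps4. Rplp2-ps1 and Rpl34-ps1 were at 0 in every library. Rpl34-ps1 is the model that shares exons with Rpl34. Rps19-ps3 had 5, 16 and 20 counts in CFA replicates 1 to 3 and 19, 10 and 16 in saline.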
